A study of Mus musculus with 6 samples.

Results

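Soft tissue sarcoma was compared with osteosarcoma across all genes, leaving out chromosomes X and Y, in 4 of the 6 RNA sequencing libraries of a mouse series. The tumours were chosen by their titles: 2 libraries of osteosarcoma, a malignant tumour whose cells lay down bone, and 2 of soft tissue sarcoma, a malignant tumour of connective tissue outside bone. Both tumour types, and the 2 libraries of NG2-expressing cells sorted from skeletal muscle that completed the series, came from NG2-Cre;p53flox/flox mice of mixed background. In this cross the Cspg4 promoter, active in pericytes and other cells that carry the NG2 proteoglycan, drives Cre recombinase, which cuts out the floxed stretch of Trp53, a tumour suppressor. The NG2 cells used as reference carry the same alleles as the tumours. Osteosarcoma 1 was taken from the right tibia and osteosarcoma 2 from the lumbar spine, and both soft tissue sarcomas were subcutaneous. No ages were given, and the labels did not say whether the libraries came from separate animals. A p-value here therefore reflects only how far these samples spread. That spread may be in part technical, and for the osteosarcomas it includes the difference of site.

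Bone is built by osteoblasts, which are directed by the transcription factors Runx2 and Sp7, deposit type I collagen and mineralise it with the help of phosphatases. It is resorbed by osteoclasts, which are cells of the macrophage lineage. Fibroblasts make softer connective tissue with other collagens, proteoglycans and fibulins, and Hox genes and related factors mark the position in the body from which connective tissue cells come.

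The tibial osteosarcoma had a total of 52056569 counts on genes and the spinal one 28107779, the first soft tissue sarcoma had 58126832 and the second 27693585, and the NG2 cell libraries had 39453073 and 44622315. The lane in the deposited names was 5 for osteosarcoma and 6 for soft tissue sarcoma, so lane and tumour type cannot be told apart. Xist, the RNA of the inactive X chromosome, was at 54.2 and 204 CPM (counts scaled to a common library size by the TMM method) in the osteosarcomas and at 0.0839 and 0.135 CPM in the soft tissue sarcomas. The Y-linked gene Ddx3y was at 14.8 and 0.0356 CPM against 76.7 and 43.1 CPM. Osteosarcoma 1 was the library that held both Xist and Ddx3y well above 0, which the labels do not account for. Sex and tumour type can therefore not be fully told apart, and no gene of either chromosome is counted below. The libraries were amplified and carry no molecular identifiers, so intervals and floors below cover counting error only.

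The targeted gene did not separate the tumour types. Trp53 (ENSMUSG00000059552) was at 24.3 and 32.6 CPM in the osteosarcomas and at 31.2 and 27.3 CPM in the soft tissue sarcomas, with overlapping ranges. Its log2 fold change was 0.04 ± 0.29 (SE derived from the F statistic of edgeR's test, n = 2 per group, edgeR adjusted p = 0.977). These counts pool all exons, floxed or not, and so check the deletion only weakly. Cspg4, whose promoter drove Cre, was at 118 and 37.7 CPM against 188 and 88.7 CPM (log2 fold change 0.83 ± 0.61, edgeR adjusted p = 0.566).

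The soft tissue sarcoma libraries were more alike than the osteosarcoma libraries, which came from different sites and differed in Xist and Ddx3y. With 1 pair per type, tumour type, site and sex cannot be told apart in these distances. Across the 18051 tested genes, which are not independent replicates, Pearson's r of log2(CPM + 1) was 0.978 between the soft tissue sarcomas, 0.930 between the osteosarcomas, and 0.898 to 0.908 over the 4 pairs of 1 tumour of each type. CPM + 1 differed by more than 2-fold in 5.67% of genes between the soft tissue sarcomas and in 18.2% between the osteosarcomas. Between types the share was 21.2% to 23.3%. Differences of more than 16-fold in CPM + 1 numbered 13 genes between the soft tissue sarcomas, 130 between the osteosarcomas and 204 to 268 between types. Adding 1 CPM shrinks the fold of low genes, so these counts are not of folds in CPM itself. Genes in which both libraries of one type lay above both of the other made up 50.4% of all tested genes, 26.1% with soft tissue sarcoma higher and 24.3% with it lower.

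In all, 26 genes, or 0.144% of those tested, passed the test of the difference between the tumour types (edgeR's quasi-likelihood test in 1 model of all 6 libraries, Benjamini-Hochberg adjusted p under 0.05), 16 higher in soft tissue sarcoma (0.0886%) and 10 lower (0.0554%). Their adjusted p lay between 0.0428 and 0.0470. At an unadjusted p under 0.05 there were 2914 genes (16.1%), 1714 higher (9.5%) and 1200 lower (6.65%). DESeq2's Wald test called 1847 (10.2%), 1111 higher (6.15%) and 736 lower (4.08%), the 26 among them. None of the 26 passed edgeR's test when the NG2 cell libraries were left out (smallest adjusted p of any gene 0.0536) or when either soft tissue sarcoma was (smallest adjusted p 0.189 without soft tissue sarcoma 1 and 0.106 without soft tissue sarcoma 2). Without osteosarcoma 1 there were 59 calls, 14 of the 26 among them, and without osteosarcoma 2 there were 309, all 26 among them. The sign of all 26 was the same in each of these fits.

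**Figure D1:**
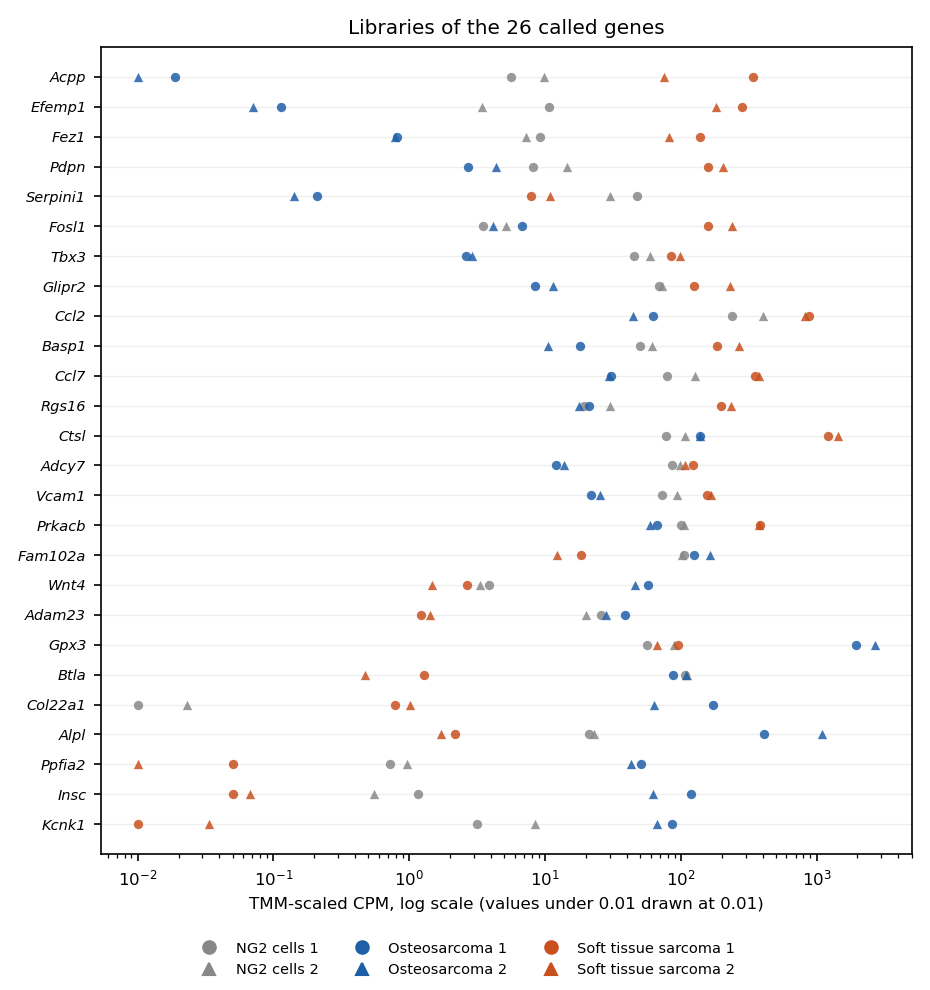
Level of each of the 26 called genes in the 6 libraries, in TMM-scaled CPM on a log scale, with circles for replicate 1 and triangles for replicate 2. The upper 16 genes have both soft tissue sarcomas to the right of both osteosarcomas, from 6.01-fold for Prkacb to 2505-fold for Efemp1 and more for Acpp, and the lower 10 have them to the left.

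The 10 genes that fell in soft tissue sarcoma encode a bone phosphatase, a collagen, a Wnt ligand, cell surface proteins and scaffolds, among others. Alpl (ENSMUSG00000028766; chromosome 4, 137741733 to 137796384, GRCm38), the alkaline phosphatase that bone needs to mineralise, was at 407 and 1103 CPM in the osteosarcomas and at 2.18 and 1.72 CPM in the soft tissue sarcomas. Alpl fell 387-fold (log2 fold change -8.59 ± 0.67), and its level in the soft tissue sarcomas was also under the 21 and 22.8 CPM of the NG2 cells. Insc (chromosome 7, 114743694 to 114850383), an adaptor of the machinery that orients the mitotic spindle, was at 119 and 62.2 CPM against 0.0503 and 0.0674 CPM, 1540-fold lower. Kcnk1 (chromosome 8, 125995170 to 126030685), a potassium leak channel, was at 86.4 and 67.1 CPM in the osteosarcomas and had 1 count over both soft tissue sarcomas, a ratio of 7112 with an exact 95% interval from 1276 to 280960. Ppfia2, a liprin scaffold protein of synapses, was at 50.9 and 43.0 CPM against 0.0503 and 0 CPM, a ratio of 1433 with an interval from 490 to 6950. Both osteosarcomas lay far above both soft tissue sarcomas in each of these genes, and the osteosarcomas differed from each other by less than 3-fold.

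Col22a1 (chromosome 15, 71795795 to 72034227), a collagen of tissue junctions, was at 174 and 63.7 CPM in the osteosarcomas and fell to 0.789 and 1.01 CPM, 132-fold. Gpx3, a secreted glutathione peroxidase, was at 1958 and 2698 CPM and fell 28.8-fold, to 94.8 and 66.9 CPM. Wnt4, a Wnt ligand, was at 57.7 and 46.2 CPM and fell 25.0-fold, to 2.67 and 1.48 CPM. In these 3 genes the osteosarcomas were the highest group of the series. For the other 3 the osteosarcomas and NG2 cells were close and the soft tissue sarcomas low. Btla, an inhibitory receptor of lymphocytes, was at 108 and 110 CPM in the sorted cells and at 87.1 and 109 CPM in the osteosarcomas. It fell 112-fold, to 1.28 and 0.472 CPM. Lymphocyte marker genes, a list of 18 without Btla, summed to 6293 and 3408 CPM in the NG2 cells. Unlike Btla, that sum was lower in osteosarcoma (60.0 and 83.7 CPM) than in soft tissue sarcoma (211 and 132 CPM). Which cells held Btla was not tested. Adam23, an adhesion protein of the ADAM family, was at 39.1 and 28.1 CPM in osteosarcoma against 1.22 and 1.42 CPM, and Fam102a at 124 and 163 CPM against 18.5 and 12.3 CPM.

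Genes higher in soft tissue sarcoma included transcription factors, a fibulin and chemokines. Efemp1 (ENSMUSG00000020467; chromosome 11, 28853204 to 28926743), the matrix protein fibulin-3, was at 0.114 and 0.0711 CPM in the osteosarcomas and at 283 and 180 CPM in the soft tissue sarcomas, 2505-fold higher (log2 fold change 11.18 ± 0.90). Acpp (chromosome 9, 104288251 to 104337748), an acid phosphatase, had 1 count over both osteosarcomas and stood at 339 and 75.3 CPM in the soft tissue sarcomas, a ratio of 20351 with an exact 95% interval from 3652 to 803850. Tbx3 (chromosome 5, 119670669 to 119684724), a T-box transcription factor of limb and mammary development, rose 33.5-fold, from 2.60 and 2.88 CPM to 85.3 and 98.1 CPM. Fosl1 (chromosome 19, 5447547 to 5455946), the Fra-1 subunit of the transcription factor AP-1, rose 36.5-fold, from 6.75 and 4.16 CPM to 159 and 239 CPM. In all 4 the tumour types were separated by more than the spread within either type, and Tbx3 was at 45.5 and 59.3 CPM in the NG2 cells, near the soft tissue sarcomas. The NG2 cells had Fosl1 at 3.46 and 5.14 CPM, Efemp1 at 10.8 and 3.44 CPM and Acpp at 5.65 and 9.74 CPM.

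Fez1 (chromosome 9, 36821864 to 36878924), an adaptor of axonal transport, rose 137-fold, from 0.815 and 0.782 CPM to 138 and 81.2 CPM (log2 fold change 7.09 ± 0.46). Pdpn (chromosome 4, 143267431 to 143299564), podoplanin, a membrane glycoprotein of lymphatic endothelium and of some fibroblasts, rose 51.4-fold, from 2.71 and 4.37 CPM to 159 and 205 CPM. Serpini1, the protease inhibitor neuroserpin, rose from 0.208 and 0.142 CPM to 7.89 and 10.9 CPM, and Basp1, a membrane protein of growth cones, from 18 and 10.5 CPM to 186 and 268 CPM. Glipr2 rose 17.8-fold, from 8.49 and 11.5 CPM to 125 and 232 CPM.

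The chemokine genes Ccl2 and Ccl7, neighbours on chromosome 11 (82035571 to 82037453 and 82045712 to 82047525) whose products attract monocytes, rose together. Ccl2 went from 62.2 and 44.3 CPM to 885 and 823 CPM, and Ccl7 from 30.4 and 29.7 CPM to 352 and 379 CPM. The NG2 cells lay between the tumour types, with Ccl2 at 237 and 401 CPM and Ccl7 at 79.8 and 127 CPM. Vcam1, an adhesion molecule that binds leukocytes, rose 6.81-fold, from 21.8 and 25.4 CPM to 155 and 166 CPM, and Ctsl, the lysosomal protease cathepsin L, 9.53-fold, from 139 and 139 CPM to 1221 and 1429 CPM. Genes of G protein and cyclic AMP signalling were among the rest. Adcy7, an adenylyl cyclase, rose 8.85-fold, Prkacb, a catalytic subunit of protein kinase A, 6.01-fold, and Rgs16, which switches off G proteins, 11-fold. The NG2 cells lay above the osteosarcomas in Vcam1 (73.1 and 93.4 CPM), Adcy7 (85.6 and 98.3 CPM) and Prkacb (99.5 and 105 CPM). They were near the osteosarcomas in Rgs16 (19.2 and 30.0 CPM) and below them in Ctsl (78.3 and 107 CPM). The summed level of 18 macrophage marker genes also differed between the tumour types, at 2562 and 2182 CPM in the osteosarcomas and 6482 and 5467 CPM in the soft tissue sarcomas. Of these 18 genes, 0 had 0 counts in both tumours of a type. Their part in these rises was not tested. In bulk tissue, fewer cells of a type and less RNA per cell cannot be told apart.

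Of the 26 genes, 8 have an exon that overlaps an exon of another annotated gene, and in 2, Fosl1 and Ppfia2, that gene codes for a protein. Among genes named below by the naming rule, Smpd3, Ctnnb1, Hoxa2, Hoxc10 and Igf2 also overlap an exon of a protein-coding gene. The strand setting of the counting was not given in the sources used here, so reads of these pairs cannot be told apart.

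The members of 36 gene lists were read next, with 788 different genes in all. The median log2 fold change over all tested genes was -0.02. Over all tested genes, 9.5% were higher and 6.65% lower at an unadjusted p under 0.05, and 6.15% and 4.08% by DESeq2. EdgeR called 0.0886% as higher and 0.0554% as lower. The counts of each list below are to be read beside these shares, and some lie near them. In each paragraph the genes with the smallest p of the list come from the naming rule, and genes marked as added were picked after their values were seen.

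**Figure D2:**
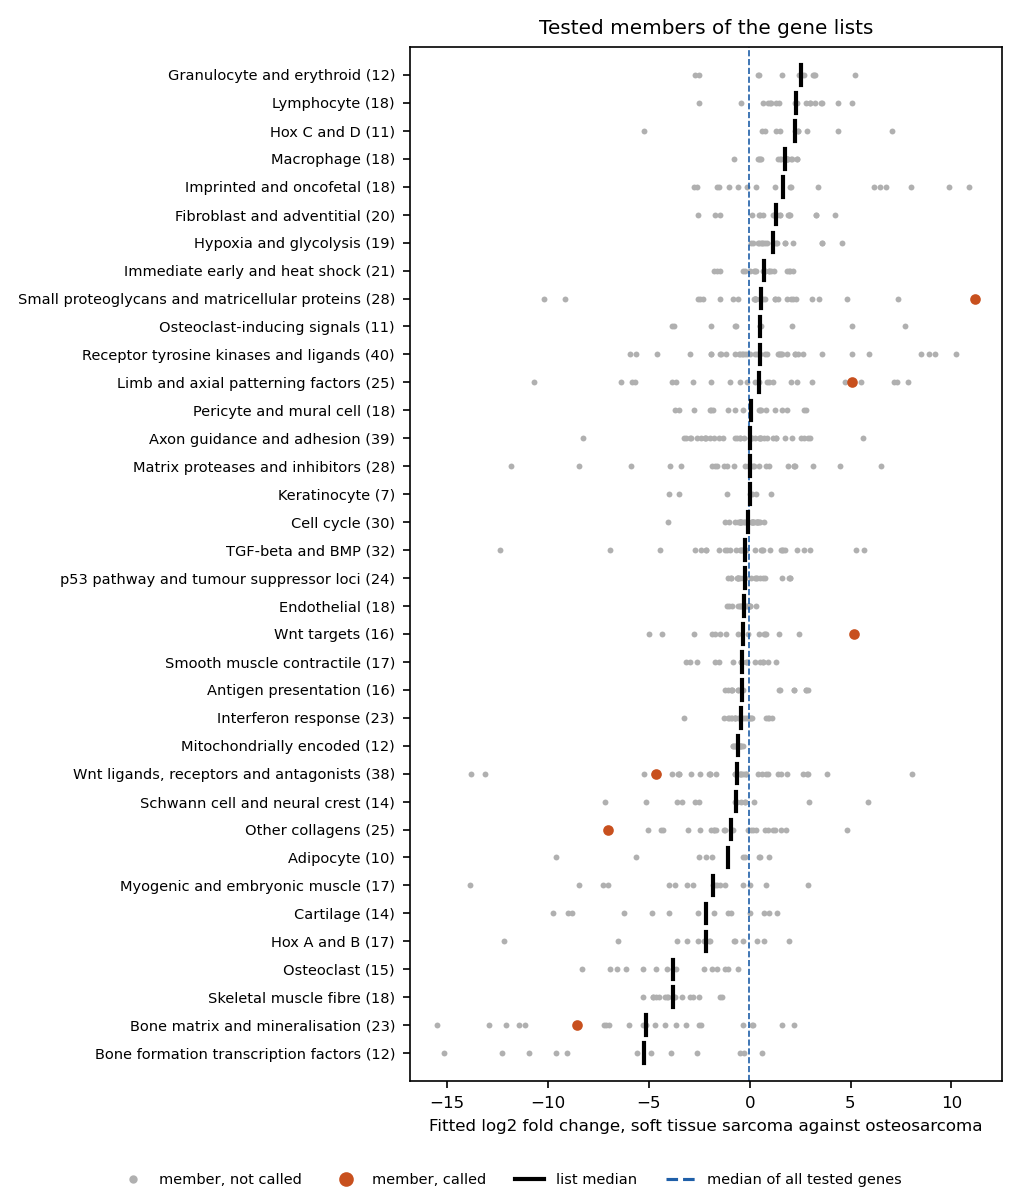
Fitted log2 fold change of soft tissue sarcoma against osteosarcoma for each tested member of the 36 lists (points), with the list median as a black bar, called members in orange and the median of all tested genes, -0.02, as a dashed line. Medians run from -5.23 for bone formation transcription factors to 2.53 for granulocyte and erythroid genes, whose median is 2.03 with genes at 0 counts at their bound, under the 2.26 of Hox C and D. Fitted values of genes at 0 counts in a group depend on the prior count.

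Bone formation genes were low in soft tissue sarcoma. Sp7, the osteoblast transcription factor osterix, was at 134 and 84.6 CPM in the osteosarcomas and had 0 counts in both soft tissue sarcomas, at least 3253-fold lower when the group is set to a floor of 3 counts (edgeR adjusted p = 0.0583). Runx2, the master regulator of osteoblasts, was at 424 and 207 CPM against 45.4 and 57.6 CPM, a 6.13-fold difference (edgeR adjusted p = 0.0984), and the soft tissue sarcomas were at the level of the NG2 cells, 33.8 and 60.5 CPM. Foxc1, a forkhead factor of skull and bone development, was at 39.4 and 52.5 CPM against 3.79 and 2.26 CPM (edgeR adjusted p = 0.0725). The homeobox factor Dlx5 (added) was at 165 and 31.2 CPM against 0.0336 and 0.0674 CPM. Of 12 tested bone formation transcription factors edgeR called 0, while 0 were higher and 9 lower at an unadjusted p under 0.05, and DESeq2 called 0 higher and 6 lower. Their median log2 fold change was -5.23, with a range of -6.87 to -4.57 over the fits without 1 library.

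Of 23 tested bone matrix and mineralisation genes, Alpl fell, as given above, and the other 22 missed the threshold. At an unadjusted p under 0.05, 2 were higher and 16 lower, DESeq2 called 2 higher and 14 lower, and the median was -5.16 (-6.46 without soft tissue sarcoma 1 and -3.20 without osteosarcoma 1). Smpd3, a sphingomyelinase needed for bone mineral, was at 434 and 96.4 CPM against 1.17 and 2.39 CPM (edgeR adjusted p = 0.0583). Type I collagen, the bulk of bone matrix, was high in both tumour types: Col1a1 (added) was at 32201 and 19599 CPM in the bone tumours and at 2389 and 1779 CPM in the subcutaneous ones (log2 fold change -3.64 ± 0.52), and 41.3 and 19.1 CPM in NG2 cells. Bglap (added), the osteocalcin gene, has near-identical copies among which reads may be split, and was at 1235 CPM in the tibial tumour, 37.8 CPM in the spinal tumour and 0.168 and 0.101 CPM in soft tissue sarcoma. Ibsp (added), bone sialoprotein, ran the other way, at 439 and 17589 CPM against 0.956 and 1.35 CPM. Not all members were low: Spp1 (added), osteopontin, was at 3167 and 650 CPM against 1916 and 2161 CPM, and the DESeq2 calls that were higher were Ank and Enpp1 (added), which supply the mineral inhibitor pyrophosphate, at 60.4 and 54.0 against 354 and 164 CPM and at 24.4 and 51.2 against 84.8 and 147 CPM.

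**Figure D3:**
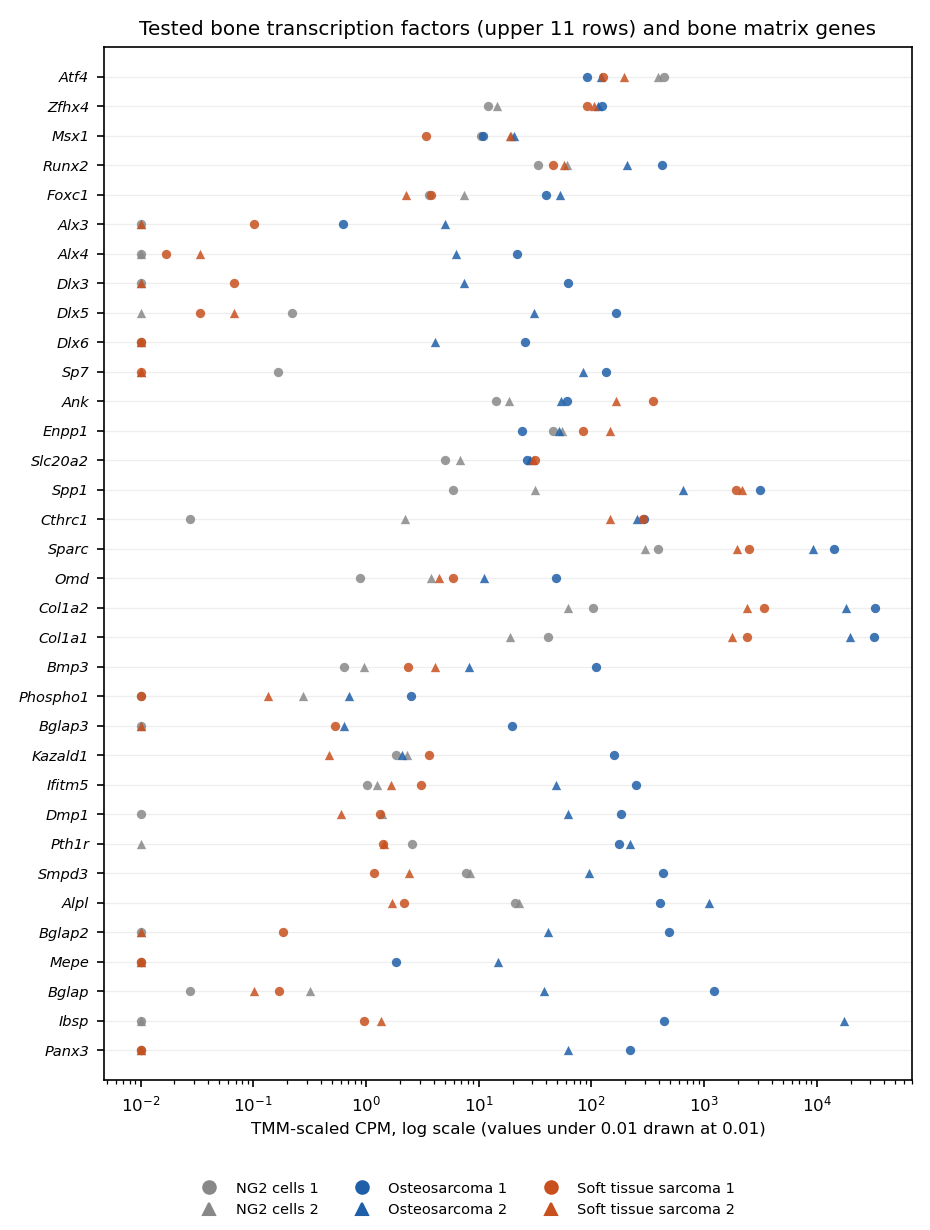
Level in the 6 libraries of 11 of the 12 tested bone formation transcription factors (upper rows) and the 23 tested bone matrix genes (lower rows), in TMM-scaled CPM on a log scale, each block in order of log2 fold change. Sp7 and Panx3 sit at the left edge in both soft tissue sarcomas, while Spp1 and Zfhx4 overlap or lie close between the tumour types.

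Runx factors bind the core letters TGTGGT. In the window from 250 bases before to 50 bases after the RefSeq start (GRCm38.p6), searched on both strands, 6 of the 18 bone matrix genes found in the promoter table held these letters (33.3%), against 18.9% of 25748 genes off X and Y. Some genes have more than 1 window, and by window the shares were 23.1% of 26 against 16.7% of 31396. Of the called genes found there, 1 of 9 that fell (11.1%) and 2 of 11 that rose (18.2%) held the letters. The match in Bglap lies 132 bases before the start. A stretch of 100 bases around it (chr3:88384567-88384666, minus strand) is shown, with the match in capitals as read on the opposite strand. Bglap was picked because it is the classic target of Runx2. Its level was far higher in the tibial osteosarcoma than in the spinal one, as given above. Runx2 was not called, and its part in the level of Bglap was not tested.
Bglap: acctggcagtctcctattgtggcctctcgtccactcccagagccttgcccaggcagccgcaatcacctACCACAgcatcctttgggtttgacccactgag
A match is a description of letters and not of binding.

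Osteoclast genes set the spinal osteosarcoma apart from the other 3 tumours. Acp5, the acid phosphatase of osteoclasts, was at 395 and 7465 CPM in osteosarcoma 1 and 2 against 88.7 and 23.7 CPM (edgeR adjusted p = 0.156), and Dcstamp, which lets their precursors fuse, was at 9.74 and 423 CPM against 3.54 and 0.943 CPM (edgeR adjusted p = 0.183). The summed level of the list was 1203 and 22245 CPM in the osteosarcomas and 867 and 626 CPM in the soft tissue sarcomas. EdgeR called 0 of 15 members, 0 were higher and 8 lower at an unadjusted p under 0.05, and DESeq2 called 0 higher and 5 lower. The median was -3.79, and -0.39 without osteosarcoma 2.

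Among signals that induce osteoclasts, Il34, a ligand of the macrophage receptor encoded by Csf1r, was at 2.41 and 6.26 CPM in the osteosarcomas and 150 and 136 CPM in the soft tissue sarcomas (33.0-fold; edgeR adjusted p = 0.0520). Pthlh, parathyroid hormone-related protein, was at 0 and 0.320 CPM against 34.1 and 25.4 CPM (edgeR adjusted p = 0.109). Tnfsf11 (added), which encodes RANK ligand, was higher in the osteosarcomas, at 5.99 and 29.0 CPM against 1.22 and 1.35 CPM. Of 11 members edgeR called 0, with 2 higher and 2 lower both at an unadjusted p under 0.05 and by DESeq2, and the median was 0.50 (-0.24 without osteosarcoma 1, 1.48 without osteosarcoma 2 and -0.33 without soft tissue sarcoma 1).

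Col2a1, the collagen of cartilage, was at 12.3 and 53.7 CPM against 0.117 and 0 CPM (edgeR adjusted p = 0.103) and Col11a2 at 485 and 24.1 CPM against 0.252 and 0.337 CPM (edgeR adjusted p = 0.0887), while Sox9, the cartilage transcription factor, was at 160 and 16.9 CPM against 227 and 113 CPM (edgeR adjusted p = 0.705). Among 14 tested cartilage genes edgeR called 0, with 0 higher and 6 lower both at an unadjusted p under 0.05 and by DESeq2, at a median of -2.16 (-2.55 with genes at 0 counts set to their bound, and -4.33 without soft tissue sarcoma 1). Of 25 other collagens Col22a1 fell and 24 did not pass. Col5a2, a partner of type I collagen, was at 2475 and 1255 CPM against 506 and 480 CPM (edgeR adjusted p = 0.111). Col7a1 (added), which anchors epithelia to connective tissue, was higher in soft tissue sarcoma, at 83.2 and 78.3 CPM against 1.44 and 4.34 CPM.

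Among matrix proteases, Mmp13, the collagenase of bone and cartilage, was at 23792 and 5232 CPM against 36.0 and 45.0 CPM, a 358-fold difference of means that did not pass (edgeR adjusted p = 0.0984). Adam19, a shedding protease, was at 12.4 and 18.7 CPM against 161 and 117 CPM (edgeR adjusted p = 0.0583), and the stromelysin gene Mmp3 (added) at 14.0 and 0.320 CPM against 944 and 375 CPM. EdgeR called 0 of 28 members, 3 were higher and 6 lower at an unadjusted p under 0.05, and DESeq2 called 2 higher and 5 lower, around a median of 0.01 (-0.33 to 0.63 with single libraries left out). Among 28 small proteoglycans and matricellular proteins, Efemp1 rose and 27 did not pass. Fbln2, another fibulin, was at 27.5 and 75.1 CPM against 1521 and 1403 CPM (edgeR adjusted p = 0.0583). The large proteoglycan gene Vcan (added) was at 11.1 and 37.4 CPM against 249 and 278 CPM, and Fmod (added), which encodes the small proteoglycan fibromodulin of tendon and bone, ran the other way at 1889 and 527 CPM against 1.59 and 0.404 CPM.

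In the fibroblast and adventitial list edgeR called 0 of 20 members, 6 were higher and 1 lower at an unadjusted p under 0.05, DESeq2 called 4 higher and 1 lower, and the median was 1.30 (3.07 without osteosarcoma 2). Anxa3 was at 56.4 and 83.3 CPM against 171 and 223 CPM, and Fap, the protease of activated fibroblasts, was lower, at 130 and 191 CPM against 31.5 and 22.5 CPM (edgeR adjusted p = 0.151 and 0.0962). Dpt (added), a dermal matrix protein, was at 1.63 and 25.5 CPM against 298 and 207 CPM. Pdgfra, a growth factor receptor of fibroblasts, was at 1715 CPM in the tibial osteosarcoma, 114 CPM in the spinal one and 328 and 320 CPM in the soft tissue sarcomas, so that its log2 fold change, negative over all libraries, was 1.54 without osteosarcoma 1.

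Of 18 pericyte and mural cell genes edgeR called 0, 1 was higher and 5 lower at an unadjusted p under 0.05 and by DESeq2, and the median was 0.07 (-0.38 to 0.43 with single libraries left out). Cox4i2, a subunit of cytochrome oxidase found in pericytes, was at 80.0 and 25.8 CPM against 3.61 and 5.83 CPM (edgeR adjusted p = 0.0984), and the pericyte receptor Pdgfrb was at 95.7 and 346 CPM against 85.6 and 122 CPM (edgeR adjusted p = 0.448). Smooth muscle genes had a median of -0.36 (0.79 without osteosarcoma 2), with 0 of 17 called by edgeR, 0 higher and 2 lower at an unadjusted p under 0.05 and the same by DESeq2. Acta2, smooth muscle actin, was at 271 and 877 CPM against 566 and 329 CPM. Pax7, which marks muscle stem cells, had 0 counts in the 4 tumours. Myod1, the factor that commits cells to muscle, was at 0 and 2.13 CPM in the osteosarcomas and had 0 counts in both soft tissue sarcomas. Cdh15, M-cadherin of muscle precursors, was at 45.3 and 43.8 CPM in the osteosarcomas against 0 counts, at least 1325-fold lower (edgeR adjusted p = 0.0666), and Eya1, a cofactor of myogenesis, at 22.1 and 6.44 CPM against 0.0336 and 0.202 CPM. EdgeR called 0 of the 17 tested myogenic genes, with 0 higher and 4 lower both at an unadjusted p under 0.05 and by DESeq2.

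Skeletal muscle fibre genes were carried by the spinal osteosarcoma. Their summed level was 24.0 and 1484 CPM in osteosarcoma 1 and 2 and 69.0 and 21.7 CPM in the soft tissue sarcomas, and the median log2 fold change of -3.81 was 1.27 without osteosarcoma 2. EdgeR called 0 of 18, with 0 higher and 3 lower both at an unadjusted p under 0.05 and by DESeq2. The spinal tumour thus held the highest levels of both muscle fibre and osteoclast genes among the 4 tumours, and the part of such transcripts in the bone tumours' other values was not tested. Endothelial genes were also highest there, at a summed 934 CPM against 279.9 CPM in osteosarcoma 1 and 571 and 449 CPM in the soft tissue sarcomas. In none of the 18 endothelial genes did the tumour types stand apart, where 50.4% of all tested genes did. EdgeR called 0 of them, with 0 at an unadjusted p under 0.05 and 0 by DESeq2. Kdr, the main receptor of vascular endothelial growth factor, was at 20.6 and 83.7 CPM against 23.7 and 24.5 CPM.

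Macrophage genes were higher in both soft tissue sarcomas in 14 of 18 cases and lower in 0, where 26.1% and 24.3% of all tested genes stood apart. EdgeR called 0, 8 were higher and 0 lower at an unadjusted p under 0.05, DESeq2 called 5 higher and 0 lower, and the median was 1.74 (1.26 to 2.48 with single libraries left out). C1qa and C1qc, which encode chains of the complement starter C1q, were at 145 and 63.7 CPM against 388 and 285 CPM and at 205 and 71.6 CPM against 552 and 417 CPM (edgeR adjusted p = 0.168 and 0.193). Mrc1 (added), the mannose receptor of resident macrophages, was at 124 and 9.67 CPM against 381 and 291 CPM. The exceptions included Cd68 (added), a lysosomal protein that osteoclasts share, at 294 and 979 CPM against 399 and 339 CPM.

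Of the antigen presentation list, H2-Aa, a chain of the class II molecule, was at 55.9 and 101 CPM against 739 and 439 CPM, and its chaperone Cd74 at 19.7 and 34.8 CPM against 224 and 149 CPM (edgeR adjusted p = 0.0953 and 0.0957). Of the 16 antigen presentation genes edgeR called 0, and 6 were higher and 0 lower both at an unadjusted p under 0.05 and by DESeq2. The median log2 fold change of the list was nonetheless -0.37 (-0.83 to 0.76 with single libraries left out). The 6 called by DESeq2 were H2-Aa, H2-Ab1, H2-DMa, H2-DMb1, Cd74 and Ciita, the activator of class II genes (added apart from H2-Aa and Cd74). The class I gene H2-K1 (added) was at 495 and 1436 CPM against 558 and 504 CPM, with overlapping tumour types. Lymphocyte genes stood apart as higher in 14 of 18 cases, against 26.1% of all tested genes, with a median of 2.31 (1.96 with genes at 0 counts set to their bound), from low levels: Lck, a T cell kinase, was at 2.44 and 2.28 CPM against 12.8 and 9.87 CPM (edgeR adjusted p = 0.0731), and Cd8a at 0.0190 and 0.107 CPM against 1.56 and 0.708 CPM. EdgeR called 0 of the 18 lymphocyte genes, 9 were higher and 0 lower at an unadjusted p under 0.05, and DESeq2 called 8 higher and 0 lower. Granulocyte and erythroid genes had a median of 2.53 (2.03 with genes at 0 counts set to their bound, and 1.11 without soft tissue sarcoma 2), with 0 of 12 called by edgeR, 2 higher and 0 lower at an unadjusted p under 0.05 and 1 higher by DESeq2. Haemoglobin genes were high in soft tissue sarcoma 2 alone, with Hba-a1, which shares reads with a near-identical copy, at 29.6 and 8.68 CPM against 35.3 and 216 CPM. Among 23 interferon response genes edgeR called 0, 0 were higher and 1 lower at an unadjusted p under 0.05, DESeq2 called 0, and Cxcl9 was at 1.86 and 41.5 CPM against 2.80 and 1.65 CPM.

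Of 17 tested genes of the Hox A and B clusters, 13 stood apart as lower in soft tissue sarcoma and 0 as higher, where 24.3% and 26.1% of all tested genes did, at a median log2 fold change of -2.17 (-2.52 to -1.97 with single libraries left out). Of 11 tested genes of Hox C and D, 7 stood apart as higher and 1 as lower, at a median of 2.26 (1.39 without osteosarcoma 1). The difference between the cluster groups was not tested. EdgeR called 0 in either group. At an unadjusted p under 0.05, 0 of Hox A and B were higher and 6 lower, and 5 of Hox C and D were higher and 0 lower. DESeq2 called 0 higher and 3 lower in the first group and 4 higher and 0 lower in the second. Levels were low, and neighbouring Hox genes lie close together, so the genes of a cluster are not independent.

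Hoxc8 was at 7.13 and 6.29 CPM in the osteosarcomas and 36.5 and 27.8 CPM in the soft tissue sarcomas (edgeR adjusted p = 0.113), and Hoxd8 at 1.31 and 1.85 CPM against 11.3 and 11.1 CPM (edgeR adjusted p = 0.103). Hoxa2, of the head end of its cluster, was at 8.36 and 3.52 CPM against 0.772 and 0.168 CPM. The posterior gene Hoxa10 had 0 counts in both soft tissue sarcomas and was at 1.63 CPM in the tibial and 26.2 CPM in the spinal osteosarcoma, and Hoxa9 was at 0.815 and 18.8 CPM there. Hoxc10, a gene of the hindlimb and lumbar region, separated the soft tissue sarcomas instead, at 0.117 and 39.7 CPM, so that its log2 fold change, positive over all libraries, was -5.86 without soft tissue sarcoma 2.

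**Figure D4:**
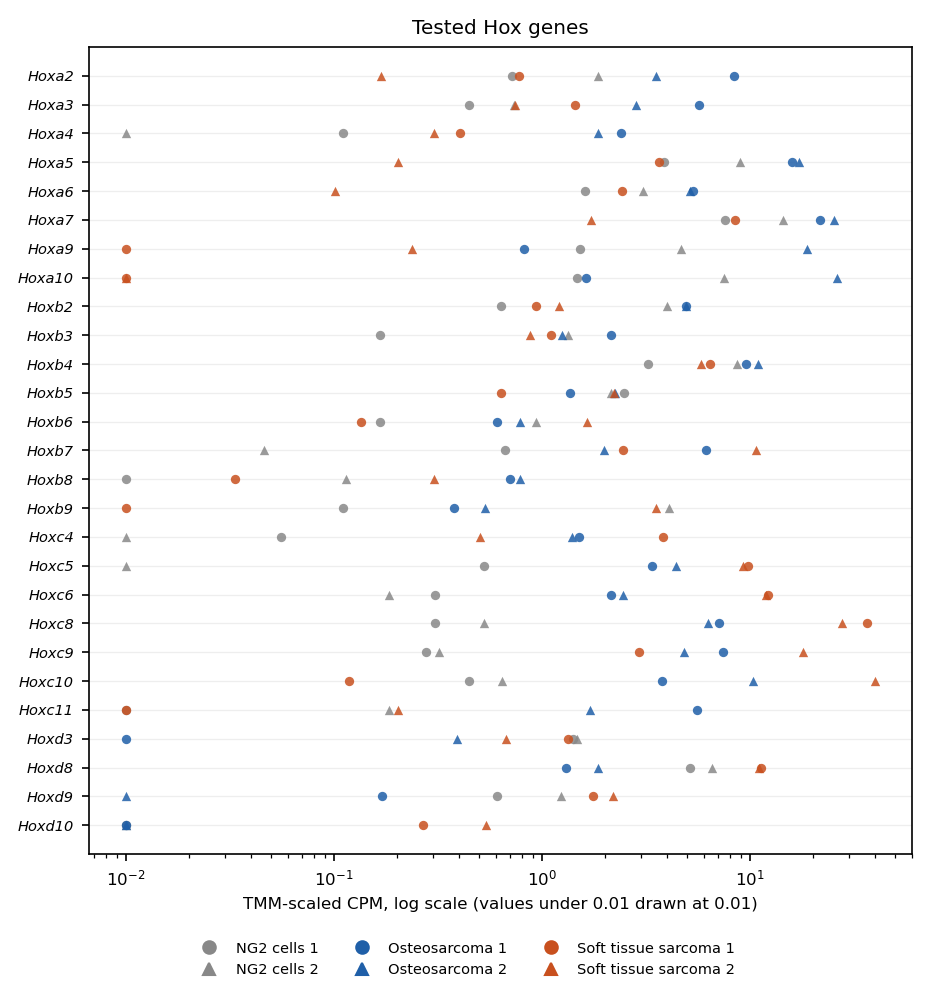
Level of 27 of the 28 tested Hox genes in the 6 libraries, in TMM-scaled CPM on a log scale, in cluster order from Hox A to Hox D. Both soft tissue sarcomas lie to the left of both osteosarcomas for most Hoxa genes and to the right for Hoxc6, Hoxc8 and Hoxd8, and Hoxc10 splits the soft tissue sarcomas between 0.117 and 39.7 CPM.

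Among other patterning factors Tbx3 rose and the other 24 tested members did not pass. Twist2, a repressor of bone maturation found in dermis, was at 0.0569 and 0.142 CPM against 24.5 and 20.1 CPM (edgeR adjusted p = 0.0583), and Osr1 (added), a factor of connective tissue precursors, at 10.3 and 16.7 CPM against 143 and 85.5 CPM. Shox2 and Tbx2 (added), factors of the limb, were higher in osteosarcoma, at 39.6 and 104 CPM against 6.26 and 3.74 CPM and at 29.7 and 14.2 CPM against 0.671 and 0.135 CPM. Tbx2 and Tbx3, related repressors of the T-box family, thus stood in opposite order in the tumour types. The limb factors Tbx5 and Pitx1, of forelimb and hindlimb, were too low to be tested, with Tbx5 at 0 CPM in the 4 tumours and Pitx1 at 0.303 CPM in 1 of them. Several patterning genes separated the osteosarcomas: En1 was at 0.227 and 14.5 CPM, Foxd1 at 9.46 and 0.391 CPM, Foxf1 at 14.8 and 0.498 CPM, and Alx1 and Sall1 at 5.48 and 6.42 CPM in the tibial tumour and 0 CPM in the spinal one. With 1 osteosarcoma per site, site and tumour cannot be told apart.

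Of 38 Wnt ligands, receptors and antagonists Wnt4 fell and the other 37 missed the threshold, with 2 higher and 11 lower at an unadjusted p under 0.05 and 2 higher and 8 lower by DESeq2. Of the secreted inhibitors, Wif1 was at 341 and 59.0 CPM in osteosarcoma and had 1 count in the soft tissue sarcomas, a ratio of 21684 with an exact 95% lower bound of 3891 (edgeR adjusted p = 0.0781), whereas Dkk2 (added) was at 0.265 and 3.38 CPM against 731 and 194 CPM. Ctnnb1, which encodes the transducer beta-catenin, was at 584 and 487 CPM against 187 and 152 CPM, a 3.15-fold difference (edgeR adjusted p = 0.143). Among 16 Wnt targets Fosl1 rose and 15 did not pass, and Rnf43, a feedback inhibitor, was at 8.40 and 12.1 CPM against 0.705 and 0.270 CPM (edgeR adjusted p = 0.0984).

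In the TGF-beta and BMP list edgeR called 0 of 32, 5 were higher and 8 lower at an unadjusted p under 0.05, and DESeq2 called 4 higher and 7 lower. The ligand gene Bmp5 was at 7.03 and 17.5 CPM against 0.0671 and 0.135 CPM, and the receptor gene Bmpr1b was higher in soft tissue sarcoma, at 0.246 and 0.320 CPM against 9.33 and 19.3 CPM (edgeR adjusted p = 0.0756 and 0.0867). Receptor tyrosine kinases and their ligands had 12 genes higher and 5 lower at an unadjusted p under 0.05 and 11 higher and 5 lower by DESeq2, with 0 of 40 called by edgeR. Ntrk2, the receptor of brain-derived neurotrophic factor, was at 0 and 0.107 CPM against 22.2 and 20.2 CPM, and the gene of that factor, Bdnf (added), at 0.455 and 1.32 CPM against 44.5 and 13.6 CPM. Axl, the receptor of Gas6, was at 102 and 60.9 CPM against 501 and 353 CPM (edgeR adjusted p = 0.0801). Fgfr2 and Fgfr3 (added), growth factor receptors of the skeleton, were higher in osteosarcoma, at 59.1 and 76.2 CPM against 1.17 and 4.48 CPM and at 7.58 and 46.7 CPM against 0.185 and 0.943 CPM.

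Of 18 imprinted and oncofetal genes edgeR called 0, 8 were higher and 1 lower both at an unadjusted p under 0.05 and by DESeq2, and the median was 1.65 (0.52 without soft tissue sarcoma 1). Hmga2, a chromatin protein of embryonic tissue, was at 0.114 and 0.391 CPM in the osteosarcomas and at 331 and 120 CPM in the soft tissue sarcomas, 894-fold on the means (edgeR adjusted p = 0.0583). Its relative Hmga1 (added) was at 2.75 and 2.99 CPM against 368 and 135 CPM, and Igf2bp2, an RNA-binding protein of fetal tissue, at 1.40 and 0.391 CPM against 106 and 94.0 CPM (edgeR adjusted p = 0.0520). Dlk1, Meg3 and Rian (added), of 1 imprinted cluster on chromosome 12, were all higher in soft tissue sarcoma, with Meg3 at 0.227 and 5.51 CPM against 199.6 and 199.9 CPM. The classic imprinted pair did not follow: Igf2 was at 2.98 and 13.9 CPM against 3.59 and 2.16 CPM, and H19 at 1.84 and 33.3 CPM against 131 and 10.9 CPM, with overlapping tumour types.

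Of 24 genes of the p53 pathway and tumour suppressor loci edgeR called 0, 5 were higher and 1 lower at an unadjusted p under 0.05, and DESeq2 called 5 higher and 0 lower. The neighbouring inhibitors of the cell cycle Cdkn2a and Cdkn2b were at 13.9 and 7.68 CPM against 47.1 and 40.0 CPM and at 37.1 and 19.8 CPM against 108 and 113 CPM (edgeR adjusted p = 0.128 and 0.167), so that neither tumour type lacked transcripts of the locus. Cell cycle genes had a median of -0.09 over 30 genes (0.13 without osteosarcoma 1 and -0.32 without osteosarcoma 2). EdgeR called 0, 0 were higher and 1 lower at an unadjusted p under 0.05, and DESeq2 called 0 higher and 1 lower, Cdk6. Cdk6 was at 2508 CPM in the tibial osteosarcoma and at 55.4 CPM in the spinal one, with 83.3 and 69.3 CPM in the soft tissue sarcomas, and its log2 fold change of -4.07 was 0.50 without osteosarcoma 1. Mki67, a marker of proliferating cells, was at 264 and 140 CPM against 101 and 94.6 CPM (edgeR adjusted p = 0.395).

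Both soft tissue sarcomas lay above both osteosarcomas in 14 of 19 hypoxia and glycolysis genes and below them in 0, where 26.1% and 24.3% of all tested genes did, and the median was 1.15 (0.73 without soft tissue sarcoma 2). EdgeR called 0, 8 were higher and 0 lower at an unadjusted p under 0.05, and DESeq2 called 7 higher and 0 lower. Slc2a1, the glucose transporter GLUT1, was at 19.9 and 15.1 CPM against 132 and 291 CPM, and Adm, the vasodilator adrenomedullin, at 4.93 and 3.73 CPM against 49.3 and 53.6 CPM (edgeR adjusted p = 0.0583 for both). Pkm (added), a pyruvate kinase gene whose splice forms these counts do not separate, was at 1280 and 1582 CPM against 3389 and 3607 CPM. Mitochondrially encoded genes lay lower in soft tissue sarcoma in 10 of 12 cases, against 24.3% of all tested genes, with a median of -0.57 (-0.24 without osteosarcoma 2), 0 called by edgeR, 0 at an unadjusted p under 0.05 and 0 by DESeq2. Immediate early and heat shock genes had a median of 0.69 (0.33 without soft tissue sarcoma 1), with 0 of 21 called by edgeR, 5 higher and 1 lower at an unadjusted p under 0.05 and 3 higher and 0 lower by DESeq2, Atf3 at 6.22 and 4.91 CPM against 25.8 and 14.9 CPM.

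Among the remaining lists, axon guidance and adhesion genes had 5 higher and 10 lower at an unadjusted p under 0.05 and 4 higher and 9 lower by DESeq2, with 0 of 39 called by edgeR. The semaphorin receptor Nrp2 was at 755 and 769 CPM against 103 and 66.8 CPM, and the adhesion molecule Cadm1 at 408 and 231 CPM against 39.7 and 44.5 CPM (edgeR adjusted p = 0.0583 for both). Of 14 Schwann cell and neural crest genes edgeR called 0, with 2 higher and 2 lower both at an unadjusted p under 0.05 and by DESeq2. Sox10, the factor that defines that lineage, had 0 counts in both soft tissue sarcomas and was at 0.133 and 0.747 CPM in osteosarcoma. Adipocyte genes had 2 lower of 10, at an unadjusted p under 0.05 and by DESeq2, and 0 called by edgeR, with Car3 at 541 and 123 CPM against 0.587 and 0.202 CPM. Of 7 tested keratinocyte genes edgeR called 0, 0 were higher and 1 lower at an unadjusted p under 0.05 and DESeq2 called 0, and Krt1, Krt15 and Dsg3 (added) had 0 counts in the 4 tumours.

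Levels were also summarised by chromosome, over the genes whose mean in the tumours reached 5 CPM. The median log2 fold change was 0.59 on chromosome 15 (454 genes, 80.6% of them higher in soft tissue sarcoma), 0.47 on chromosome 19 (381 genes, 82.7%), 0.47 on chromosome 3 (575 genes, 77.6%) and 0.39 on chromosome 12 (372 genes, 75.5%). On these 4 chromosomes each of the 4 pairs of 1 tumour of each type gave a median difference of log2(CPM + 1) between 0.37 and 0.77, while the tumours of 1 type differed by at most 0.20 in size. Chromosome 10 was lowest, at -0.42 over 545 genes, but its 4 pairs ranged from -0.84 to 0.07 and the osteosarcomas differed by -0.57 there. Chromosome 1 was at -0.32 over 674 genes, 29.8% of them higher in soft tissue sarcoma, with its 4 pairs between -0.47 and -0.11, a difference of 0.24 between the osteosarcomas and of 0.15 between the soft tissue sarcomas. The 4 pairs were also all negative on chromosomes 2, 6, 7, 11 and 14. On chromosome 13 they were all positive, from 0.19 to 0.49, with a difference of 0.21 between the osteosarcomas. Genes of a chromosome are not replicates, so no test is given.

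**Figure D5:**
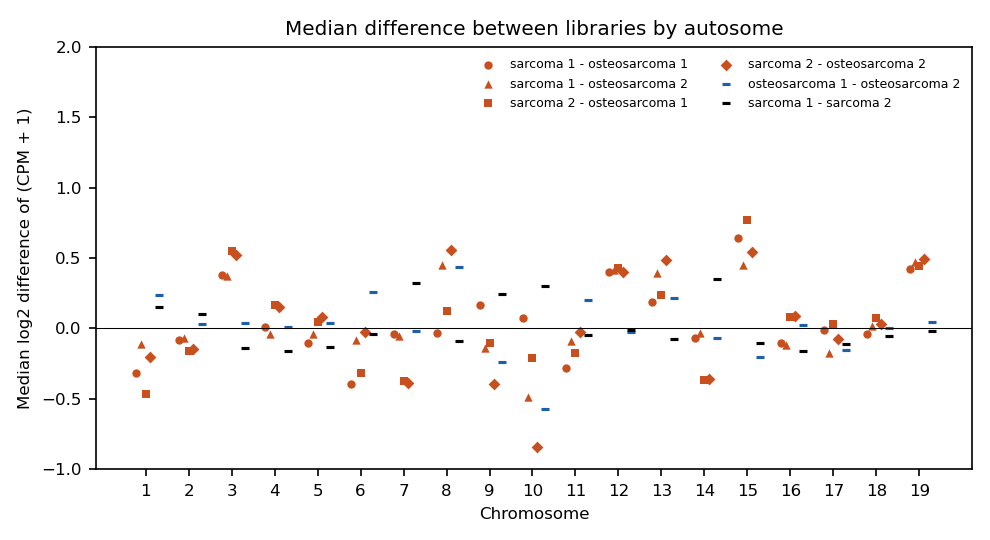
Median difference of log2(CPM + 1) over the genes of each autosome, for the 4 pairs of a soft tissue sarcoma and an osteosarcoma (orange symbols), the 2 osteosarcomas (blue dashes) and the 2 soft tissue sarcomas (black dashes). On chromosomes 3, 12, 15 and 19 the 4 orange symbols lie between 0.37 and 0.77, clear of the dashes.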

How the data were processed

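RNA of 6 samples was sequenced, and the submitters deposited 1 table of raw read counts per gene for each library, per the file contents. The submitters' processing notes name STAR, HTSeq, DESeq2, cutadapt, Trim Galore and FastQC, with the builds GRCm38 and mm10. Their versions, roles and settings are not given in the sources used here. Per the labels' protocols, about 10 ng of total RNA was copied with an oligo(dT) primer and amplified over 20 PCR cycles.

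From the deposited counts, 36723 of 38561 gene IDs were placed and named with GENCODE M21. Reads counted on no gene made up 19.5% to 33.2% of a library and were left out. Genes were filtered with filterByExpr (min.count 10, min.total.count 15), which left 19024, and tested with edgeR 4.0.16 in R 4.3.3 (TMM scaling, quasi-likelihood F test, 3 residual degrees of freedom, biological coefficient of variation 0.578). P was adjusted over all 19024 genes. Genes on X or Y (682) or with no known chromosome (291) were then left out of every count, which left 18051. With 2 libraries a group, 0.333 is the smallest p of an exact permutation test. The code was tested on simulated data. DESeq2 1.42.0 was an alternative, and an adjusted p it left undefined (1361 genes) stayed undefined.

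Rose and fell are written only of genes that edgeR called. Folds are ratios of mean CPM, against 3 counts over the group where it had 0, and from the summed counts with an exact interval where it had 1 to 3. The naming rule took Trp53 and Cspg4, called genes by size of change (12 per direction of a higher group mean of 20 CPM or more and 10 counts or more in the other, and those with fewer counts), the called members of each list or its 2 smallest p, 15 fixed genes, and patterning genes that separated the osteosarcomas. Prkacb and Serpini1 are called genes outside it. The comparison, the lists and the rule were chosen with earlier results of these data known. Some genes are counted in their lists but not reported here by name.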

Additional observations from a re-analysis of the deposited data

How the results depend on the processing

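The number of called genes depended on the model. Instead of 16 higher and 10 lower, or 26 in all, there were 243 and 159 (402) with no filter on low counts, 46 and 28 (74) with a filter of 1 CPM in 2 libraries, 1111 and 736 (1847) with DESeq2's Wald test, 4 and 3 (7) with the replicate number as a block, and 0 and 0 (0) with the tumour libraries only, where 1727 and 1229 genes had an unadjusted p under 0.05. DESeq2 size factors gave 23 and 11, and leaving out X and Y before the fit gave 16 and 10. Leaving out each library in turn gave 0 to 180 higher, 0 to 129 lower and 0 to 309 in all, and each such fit assumes that the lone sample of a group varies like the others. The 26 genes had the same sign in each of these fits. With the block, 5 of the 26 were still called. Over genes, the deviations of replicate 1 from its group mean had a correlation of -0.0864 between the tumour types. With 2 libraries a group, this value cannot decide whether the replicate numbers pair the samples. Among the other named genes the block turned the sign of Foxf1, to 0.035. The log2 fold change turned its sign when single libraries were left out for Trp53 (-0.12 to 0.28), Kdr (-1.76 to 0.23), Emcn (-1.53 to 0.45), Cxcl9 (-4.17 to 0.27), Krt14 (-9.56 to 5.61), Cdk6 (-5.03 to 0.50), Pdgfra (-2.40 to 1.54), Pdgfrb (-1.70 to 0.13), Acta2 (-0.94 to 0.73), Hoxc10 (-5.86 to 2.50), H19 (-0.68 to 5.28), En1 (-0.47 to 5.48) and Foxf1 (-2.12 to 3.47). Beyond the construction of these fits (fewer samples or genes), the cause was not tested. Depth sets the floor: 3 counts over a tumour group are 0.0371 CPM in osteosarcoma and 0.0336 CPM in soft tissue sarcoma.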
